A study of Mus musculus with 12 samples.

Results

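The protocadherin gamma variable exons were followed here through 8 genes, Pcdhga1, Pcdhga2, Pcdhga3, Pcdhgb4, Pcdhgb5, Pcdhga10, Pcdhga11 and Pcdhga12. Their H3K9me3 regions were the entries of the authors' table that carry one of these symbols, which gave 10 of 50654 listed regions. Their H3K27ac signal was the set of peaks in the same interval of chromosome 18, with the variable exons kept apart from the 3′ end that all gamma transcripts share. The cells were neural progenitors grown as neurospheres from the ganglionic eminence of C57BL/6 mouse embryos (E15.5). One group was wild type (WT) and the other carried a knockout (KO) of Setdb1, a methyltransferase for lysine 9 of histone H3. The labels call this genotype Nestin-KO, without describing the allele, the driver line or how complete the deletion was. Each mark was profiled by native ChIP-seq on 100000 nuclei per library, in 3 KO and 3 WT animals. The KO animals for H3K9me3 were 3 males and the WT animals 2 females and 1 male, while each H3K27ac group held 1 female and 2 males. The libraries are bulk, so fewer cells that carry a mark and less of the mark per cell cannot be told apart.

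Gamma protocadherins are cadherin-type adhesion proteins of neurons. Each variable exon has its own promoter and encodes the extracellular domains, the membrane span and the start of the cytoplasmic part of a single isoform, which is then spliced to constant exons that supply the common cytoplasmic end. Isoforms bind the same isoform on a facing cell, and neurons choose among the A and B exons in varying combinations, while the C-type exons at the end of the array are used more uniformly. H3K9me3 is a mark of silent heterochromatin, and H3K27ac is a mark of active promoters and enhancers.

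On mm10, the RefSeq table of the same assembly (GRCm38) held 22 gamma genes, 19 of type A or B and 3 of type C. Of these, 21 end within 10 bp of each other, so a gene's start marks its own variable exon. The variable part of the interval was taken as chr18:37661201-37823546, which is 162 kb long, and the shared 3′ part as chr18:37823547-37841873, which is 18.3 kb long. The table listed 13 H3K9me3 regions with a gamma symbol, the 10 above and 1 each for Pcdhga4, Pcdhga6 and Pcdhgb8 (a transcribed pseudogene in RefSeq). The authors' symbol names only 1 gene per region, although the regions are long. Pcdhga2 and Pcdhga3 had 0 regions of their own name, and their starts lay in the 37.5 kb region named Pcdhga4, together with those of Pcdhgb1, Pcdhga4, Pcdhgb2 and Pcdhga5. Pcdhga11 also had 0, and its start lay in the 24.4 kb region named Pcdhga10, together with those of Pcdhga9, Pcdhgb6, Pcdhga10 and Pcdhgb7. In all, 18 of the 19 A and B starts fell inside a listed region, and the remaining start, that of Pcdhga12, was 21 bp before one. None of the 3 C-type starts fell in a listed region (0 of 3), and the start of Pcdhgc3 was 9.91 kb past the last one. The 13 regions covered 117 kb, or 86.5% of the 135 kb from the first to the last of them, and the shared 3′ part held none.

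H3K9me3 was lower in KO than in WT across the whole A and B array. Values are the authors' normalised reads per region, 3 per genotype. No animal is named for them, so a value is identified only by its place in the table (the first, the second or the third). Summed over the 10 member regions they were 512, 649 and 1554 in KO and 3512, 5485 and 5376 in WT. The KO mean was 905 ± 566 against a WT mean of 4791 ± 1109 (SD, n = 3), and the 3 KO values were 10.7%, 13.5% and 32.4% of the WT mean. All 3 KO values lay below all 3 WT values in 10 of the 10 member regions and in 13 of the 13 gamma regions. The same was true of 54.2% of all listed regions. limma (two-sided, on log2(value + 1), Benjamini-Hochberg adjustment over all listed regions) called 7 of the 10 lower and 0 higher at an adjusted p of 0.05 or less. It called 14.9% of all listed regions lower and 1.24% higher. Several regions share the same adjusted p because the adjustment never lets a smaller p have a larger adjusted value.

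**Figure D1:**
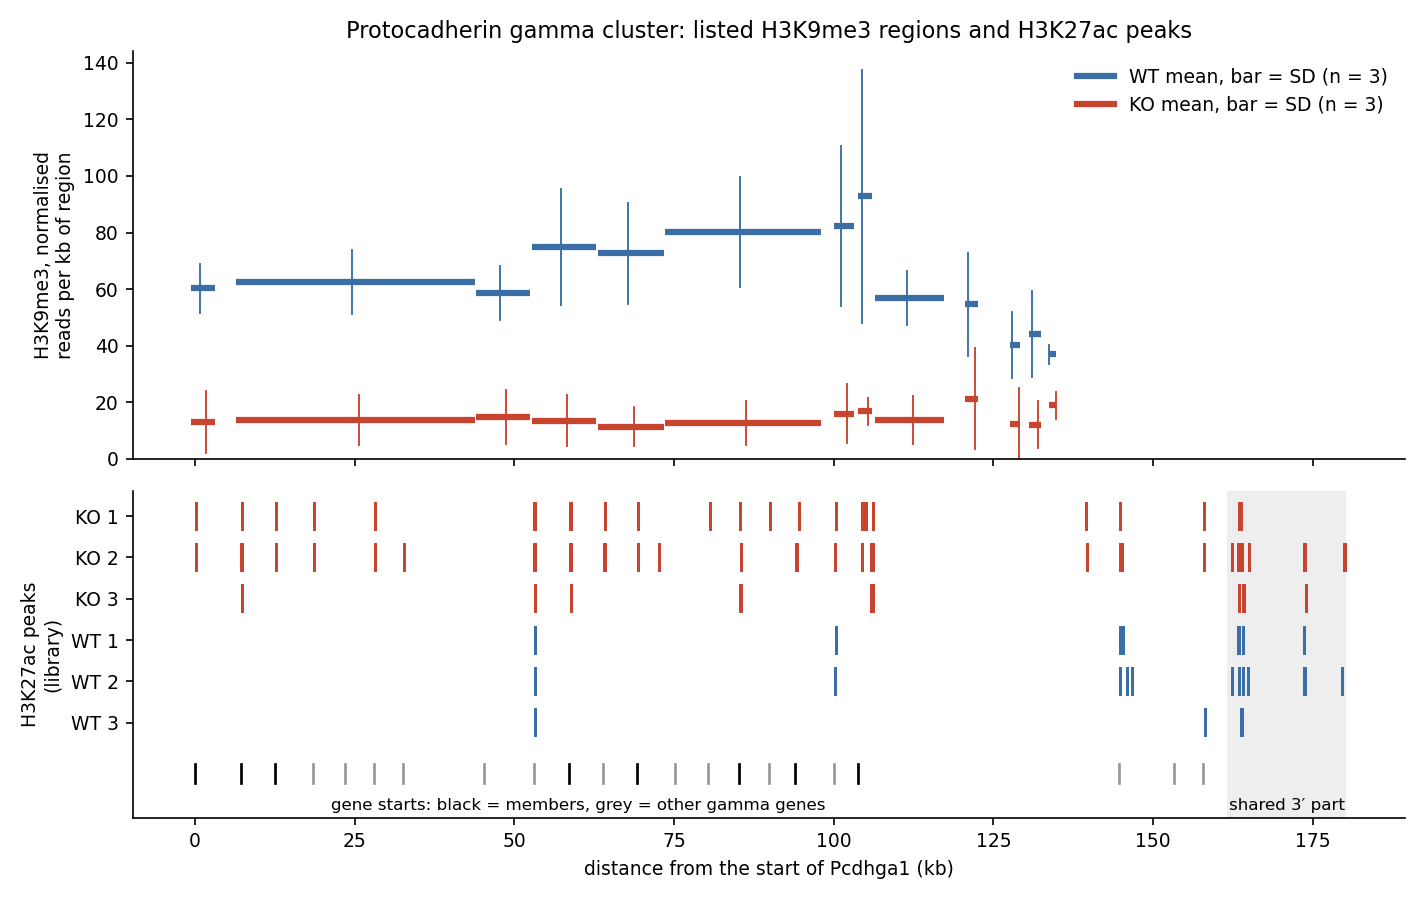
Upper panel, mean H3K9me3 per kb of each of the 13 listed gamma regions in WT and KO (vertical bars, SD, n = 3), against distance from the start of Pcdhga1 in kb. Lower panel, H3K27ac peaks of each library with the gene starts beneath (peaks narrower than 0.5 kb are drawn 0.5 kb wide) and the shared 3′ part in grey. H3K9me3 regions end 9.91 kb before Pcdhgc3, and the KO libraries hold most of the peaks over the A and B starts.

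The region at Pcdhga1, the first gene of the array, spans chr18:37661201-37665000 and lies within 3 kb of a promoter by the authors' annotation. Its values were 12.74, 41.85 and 94.13 in KO and 198.54, 225.55 and 263.9 in WT. The groups did not overlap, and the KO values varied more among themselves (49.6 ± 41.2, SD, n = 3) than the WT values (229 ± 32.8, SD, n = 3). The difference was -2.58 ± 0.60 on the log2(value + 1) scale (SE), with a limma adjusted p of 0.0471. The first KO value here rests on 5 reads recovered from the steps of the values, against 96 and 112 for the second and the third.

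The 37.5 kb region named Pcdhga4, which holds the starts of Pcdhga2 and Pcdhga3, spans chr18:37668201-37705700. It read 328.61, 327.42 and 895.09 in KO and 1859.6, 2609.8 and 2563.6 in WT. Its difference was -2.33 ± 0.40 (limma adjusted p = 0.0471), so the starts of Pcdhga2 and Pcdhga3 also lay in a region called lower. It is not counted among the 10.

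Pcdhgb4 and Pcdhgb5 are the B-type members and sit in the middle of the array. The Pcdhgb4 region (chr18:37714601-37724600), which also holds the start of Pcdhga7, read 68.78, 98.1 and 238.69 in KO and 512.31, 873.49 and 862.74 in WT. The Pcdhgb5 region (chr18:37724901-37735200), which also holds the start of Pcdhga8, read 63.68, 91.99 and 196.67 in KO and 537.13, 849.71 and 856.94 in WT. In both, the third KO value was the highest of the KO values and the first WT value the lowest of the WT values, and they stayed well apart. The difference was -2.62 ± 0.44 at Pcdhgb4 and -2.79 ± 0.41 at Pcdhgb5, each with a limma adjusted p of 0.0471. The Pcdhgb5 mean in KO was 15.7% of the WT mean, the lowest of the 10. The authors' deposited log2 fold change there was -2.67, and only 0.227% of all listed regions had one as low.

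The region named Pcdhga10 (chr18:37735401-37759800), which also covers the start of Pcdhga11, is the longest of the 10 and carried the most signal in sum (80.2 normalised reads per kb in WT and 12.8 in KO). It read 198.7, 207.53 and 528.65 in KO and 1412.8, 2207.1 and 2248.9 in WT. The 2 genotypes were separated by a wide gap, 312 ± 188 for KO against 1956 ± 471 for WT (SD, n = 3). The difference was -2.77 ± 0.40 (limma adjusted p = 0.0471), next in size to that of Pcdhgb5.

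Pcdhga12, the last A-type gene, gave its name to 6 of the 10 regions, whose differences ran from -2.31 in the first to -0.94 in the last, though not in steady order. The first, chr18:37765601-37767700, read 30.57, 28.77 and 47.07 in KO and 88.64, 229.65 and 266.07 in WT. It had the highest WT level per kb of the 10 (92.8 normalised reads per kb, against 16.9 in KO), and its difference was -2.31 ± 0.44 (limma adjusted p = 0.0471). The second, chr18:37768301-37779100, lies in the gene body by the authors' annotation and read 84.06, 107.69 and 253.82 in KO and 499.9, 700.43 and 638.72 in WT. It differed by -2.19 ± 0.40 (limma adjusted p = 0.0471).

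The other 4 Pcdhga12 regions are 1 to 2.1 kb long and lie farther toward Pcdhgc3. In the one that starts at 37782301, the third KO value, 88.25, came close to the lowest WT value, 92.18, and the difference of -1.59 ± 0.53 did not pass (limma adjusted p = 0.0564). The one that starts at 37789401 read 5.09, 12.21 and 42.86 in KO and 51.41, 86.12 and 55.82 in WT, and its difference of -2.07 ± 0.67 did not pass either (limma adjusted p = 0.0550). The one that starts at 37792301 passed, at -2.02 ± 0.56 (limma adjusted p = 0.0485). The last, chr18:37795501-37796500, read 15.28, 17.44 and 24.37 in KO and 37.23, 40.19 and 33.35 in WT. Its groups did not overlap, but its difference was the smallest of the 10, -0.94 ± 0.43 (limma adjusted p = 0.0890). The authors' deposited log2 fold change there was -0.96, and 48.7% of all listed regions had one as low. The first KO value rests on 2 reads in the region from 37789401 and on 3 in the region from 37792301, so these differences are less precise than those of the long regions.

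**Figure D2:**
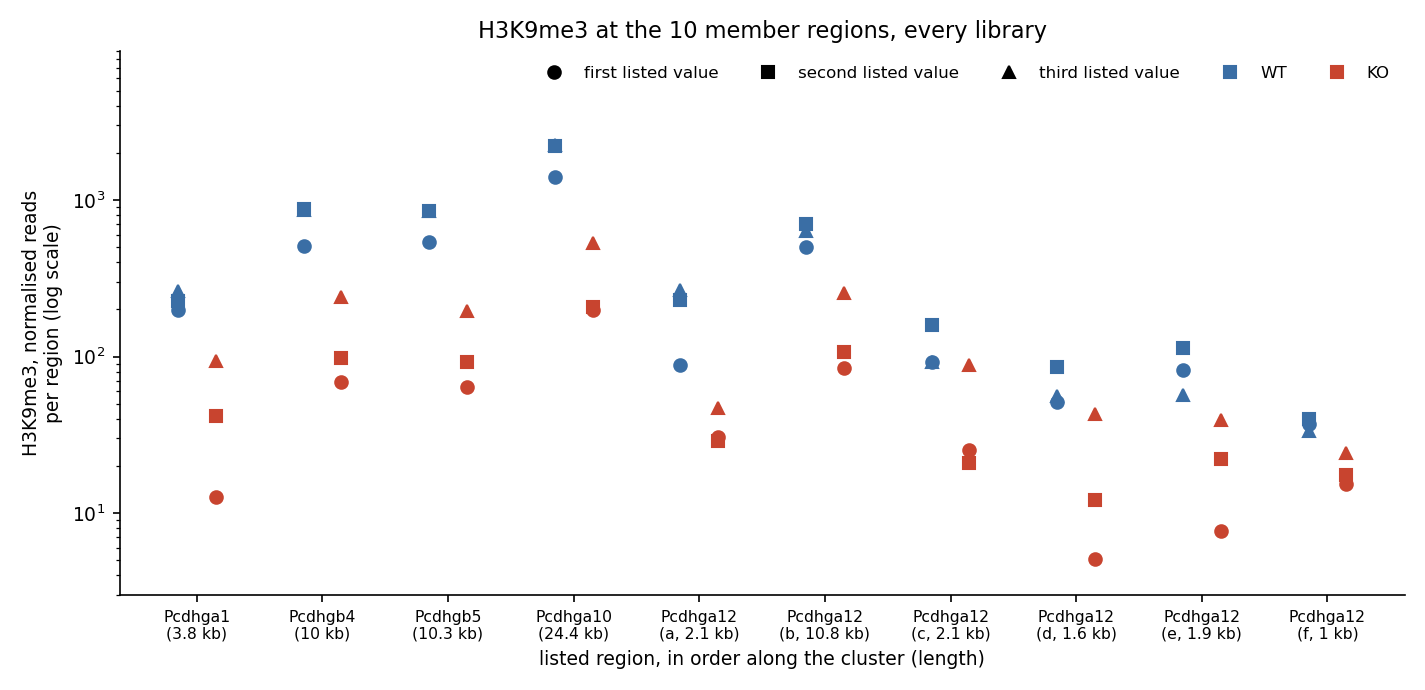
Every listed H3K9me3 value (normalised reads per region, log scale) of the 10 regions that carry a member's symbol, in order along the cluster, with the marker shape giving the position in the authors' table and the colour the genotype; the letters a to f mark the 6 Pcdhga12 regions in order. In each region the 3 KO values lie below the 3 WT values, and the third KO value is the highest KO value in 10 of 10.

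Per kb of region, the WT level of the members ran from 36.9 to 92.8 normalised reads, with a median of 58.6, against a median of 41.3 over all listed regions. The KO level ran only from 11.4 to 21.4, with a median of 13.3, against 22.7 over all listed regions. The members' median thus stood above the listed median in WT and below it in KO, and the range of levels along the array was narrower in KO than in WT. Their median limma difference was -2.25, against -1.04 over all listed regions, and the authors' deposited table gave a median log2 fold change of -2.13 for the members against -0.94 for all. The authors' adjusted p called 10 of the 10 lower, and 71.1% of all listed regions. Median-ratio scaling of the 6 columns raised the median of all listed regions from -1.04 to -0.23. On that scale the members' median was -1.43, and limma again called 7 of them lower and 0 higher, while it called 5.97% of all listed regions lower and 27.7% higher.

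The third listed KO value was the highest KO value in 10 of the 10 member regions, and in 73.8% of all listed regions. The first WT value was the lowest WT value in 8 of the 10, and in 40.6% of all listed regions. limma without the third KO value called 10 members lower, and 61.1% of all listed regions. Without the first or the second KO value, or without any 1 of the 3 WT values, it called 0 members and 0 of all listed regions lower, although between 7 and 9 of the 10 kept an unadjusted p under 0.05. limma-voom on the recovered reads called 10 of the 10 lower, and 58.0% of all listed regions. The title numbers of the animals and their sex differ between the KO and WT libraries for H3K9me3, and because no value is tied to an animal, these and the genotype cannot be told apart.

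The gamma regions were compared with the neighbouring alpha and beta clusters, which lie on the same chromosome and encode related adhesion proteins. The alpha cluster had 24 listed regions with a median limma difference of -1.38, of which limma called 10 lower. The beta cluster had 21 with a median of -1.05, of which it called 4 lower. Of all listed regions it called 14.9% lower. The median region length was 2950 bp for the members, 1650 bp for alpha and 1400 bp for beta. Whether the counts follow region length was not tested. A further 24 listed regions carried the combined symbol Pcdha7-g, with a median of -1.07, 6 called lower and 0 after median-ratio scaling, and they were left out of the comparison with either cluster. After that scaling the calls came to 2 in alpha and 0 in beta, while 7 of the 10 gamma members stayed called (5.97% of all listed regions). By limma-voom, 23 of 24 alpha, 19 of 21 beta and 24 of 24 Pcdha7-g regions were lower. The members had 10 of 10, and all listed regions 58.0%. All 3 KO values lay below all 3 WT values in 23 alpha, 16 beta and 22 Pcdha7-g regions. That held for 10 of 10 members and 54.2% of all listed regions. Per library, the mean log2(value + 1) over the gamma members minus that over the alpha regions was 0.81 ± 0.43 for KO against 1.60 ± 0.38 for WT (SD, n = 3). The KO minus WT difference of -0.79 did not pass (two-sided exact permutation test, p = 0.2, adjusted over the 2 comparisons 0.2). Against the beta regions the difference was -1.07 (exact permutation p = 0.1, adjusted 0.2), where 3 against 3 libraries cannot give a p below 0.1. With means weighted by region length, the difference was -1.11 against alpha and -1.27 against beta (exact permutation p = 0.1 each, not adjusted). The p against alpha thus depended on the weighting. A larger loss at gamma than at alpha or beta was therefore not shown by these tests. Elsewhere on chromosome 18, outside the protocadherin genes, the 1291 listed regions had a median limma difference of -1.48, and 330 of them were called lower.

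**Figure D3:**
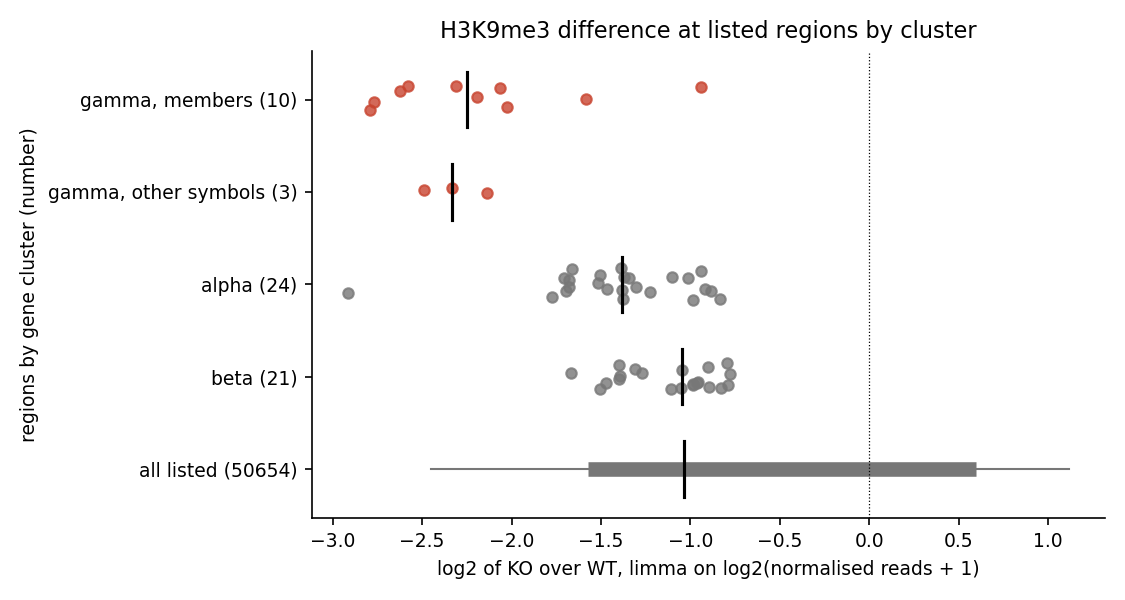
The limma difference, KO over WT on the log2(value + 1) scale, at each listed region of the gamma members, of the other gamma symbols, of the alpha and of the beta cluster (points, vertical bar at the median), and for all listed regions the median, the middle 50% (box) and the range from the percentile 5 to 95 (line). The member median is -2.25, against -1.38 for alpha, -1.05 for beta and -1.04 for all listed regions.

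H3K27ac peaks stood over the variable exons mainly in KO. The variable part held 20, 19 and 6 peaks in KO libraries 1, 2 and 3, and 4, 5 and 2 peaks in WT libraries 1, 2 and 3. The groups did not overlap, and averaged 15.0 ± 7.81 (KO) against 3.67 ± 1.53 (WT; SD, n = 3). The exact permutation test gave p = 0.1, the smallest value that 3 against 3 libraries allow, so this count cannot pass a threshold of 0.05 by that test. The bases under those peaks were 5642, 7781 and 1905 in KO and 792, 1894 and 333 in WT, and the lowest KO value exceeded the highest WT value only slightly (exact permutation p = 0.1).

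In the shared 3′ part the counts were 1, 5 and 3 in KO and 3, 6 and 1 in WT, and the groups overlapped. The KO libraries averaged 3.00 ± 2.00 and the WT libraries 3.33 ± 2.52 (SD, n = 3), with an exact permutation p of 1. The difference between the parts, variable minus shared peaks per library, was 19, 14 and 3 in KO and 1, -1 and 1 in WT, which do not overlap (exact permutation p = 0.1). An excess of KO peaks was thus seen in the variable part and not in the shared 3′ part, which is 18.3 kb long against 162 kb and held few peaks. Peaks over the constant exons themselves were not examined.

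The peak lists differed more in length among the libraries of a genotype than between the genotypes. The lists held 26393, 42712 and 11502 peaks in KO and 31951, 37342 and 12505 in WT (exact permutation p = 0.9), so library 3 of each genotype was short. With only the 11502 leading peaks of every list, the variable part held 9, 7 and 6 peaks in KO and 1, 3 and 2 in WT, which still do not overlap (exact permutation p = 0.1). The titles of both libraries 1 begin their animal code with the same number, and those of the 4 libraries 2 and 3 share another. Within the first number the KO library held 16 more peaks than the WT library, and within the second the mean difference was 9 (exact permutation p = 0.333, the smallest that 2 against 2 allow). Among peaks with a -log10 q of at least 5, the counts were 10, 15 and 3 in KO and 1, 4 and 1 in WT, and KO library 3 then lay below WT library 2 (exact permutation p = 0.2).

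In the full lists, every member start had a peak within 1 kb in at least 2 KO libraries, and none had a peak in a WT library. Over all 19 A and B starts, members included, 11 had this pattern. The members were chosen with earlier results of these data known, so their count is not independent of that choice. KO libraries 1 and 2 had a peak at 8 of the 8 member starts and KO library 3 at 3 of 8, while each WT library had one at 0 of 8. With equal list lengths the KO counts were 3, 5 and 3 of 8, and with a -log10 q of at least 5 they were 3, 7 and 1 of 8, against 0 in each WT library both times. Pcdhga2, Pcdhgb4 and Pcdhga10 were the members with a peak in every KO library. The other 5, Pcdhga1, Pcdhga3, Pcdhgb5, Pcdhga11 and Pcdhga12, had one in KO libraries 1 and 2 only. Over the 19 A and B starts, 15, 14 and 4 had a peak in KO and 2, 2 and 1 in WT (exact permutation p = 0.1). Of these 19 starts, 14 had a peak in more KO than WT libraries, 0 in more WT than KO libraries, and 3 (Pcdhga4, Pcdhga6 and Pcdhga9) in none.

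The size of the peaks differed among the members. At Pcdhgb4 the authors' fold enrichment over background was 8.93, 7.36 and 5.88 in KO libraries 1, 2 and 3, which placed the peak in the top 3.63%, 2.90% and 8.90% of each library's own list. At Pcdhga2 it was 5.02, 7.78 and 4.23, and at Pcdhga10 it was 4.20, 4.43 and 3.92. Pcdhga1 (5.10 and 6.19), Pcdhga3 (5.86 and 6.14) and Pcdhgb5 (5.67 and 4.99) had comparable values in the KO libraries 1 and 2. Pcdhga11 (3.13 and 3.82) and Pcdhga12 (3.11 and 3.05), the members nearest the end of the A and B array, had the lowest. Counted from the strongest peak, Pcdhga12 ranked at 98.4% and 91.5% of the lists of KO libraries 1 and 2. Pcdhga11 ranked at 98.3% and 64.4% there. Pcdhga10 ranked at 73.4%, 42.0% and 69.7% in KO libraries 1, 2 and 3, so several member peaks were weak ones in their lists.

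**Figure D4:**
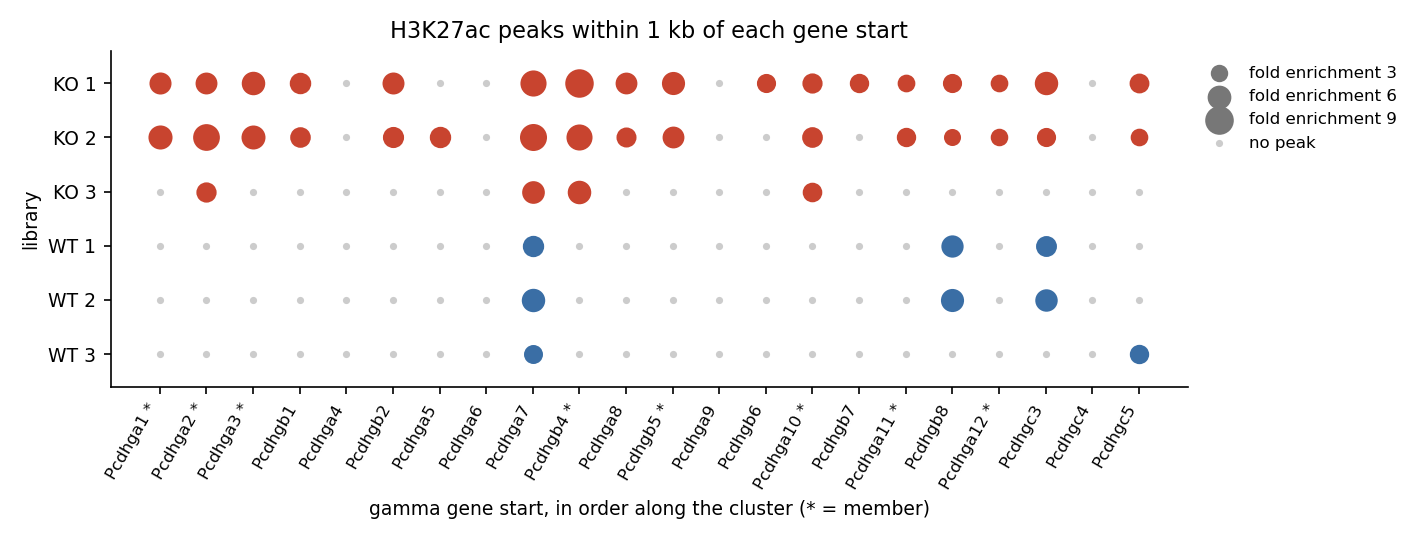
H3K27ac peaks within 1 kb of each of the 22 gamma gene starts in the 6 libraries, with the circle area growing with the authors' fold enrichment and a grey dot where there was no peak; an asterisk marks a member. In the full lists, KO libraries 1 and 2 have a peak at every member start, and no WT library has one.

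Pcdhga7 and Pcdhgb8 differed from the members, because their starts carried a peak in WT as well. Pcdhga7 had one in all 6 libraries, with a fold enrichment of 7.40, 7.95 and 5.43 in KO and 4.74, 5.82 and 3.66 in WT. Between libraries of the same number the KO value was above the WT value, but the labels do not pair libraries by that number. The groups overlapped, with 5.43 in KO library 3 below 5.82 in WT library 2. Each is a peak caller's value from its own list and no test was made. Pcdhgb8 had a peak in libraries 1 and 2 of each genotype, with 3.73 and 2.86 in KO and 5.22 and 5.66 in WT, the opposite order. Both starts lay inside a listed H3K9me3 region. The C-type genes had peaks in both genotypes, Pcdhgc3 in 2 KO and 2 WT libraries and Pcdhgc5 in 2 KO libraries and 1 WT library, while Pcdhgc4 had none. The number of C-type starts with a peak was 2, 2 and 0 in KO and 1, 1 and 1 in WT (exact permutation p = 1).

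The alpha and beta starts did not show the KO peaks that the gamma starts did. Of 14 alpha starts, 1 had a peak in libraries 1 and 2 of each genotype, that of Pcdhac2, a C-type exon, and 0 had one in libraries 3. Of 22 beta starts, 0 had a peak in any of the 6 libraries. Over all 32851 RefSeq starts with a promoter entry (none on chromosome 18), 33.6%, 35.2% and 15.0% had a peak in KO and 35.2%, 35.0% and 16.5% in WT (exact permutation p = 0.7). The share of gamma starts with a peak minus that of alpha starts was 43.9 percentage points higher in KO than in WT, and the share minus that of beta starts 43.9 points higher (exact permutation p = 0.1 each). The share of A and B starts minus that of all promoters was 45.3, 38.4 and 6.03 points in KO and -24.7, -24.5 and -11.2 points in WT, without overlap (exact permutation p = 0.1).

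The peaks near the A and B starts took a regular position relative to them. Overlapping peaks of the 6 libraries were merged, which gave 24 regions in the variable part and 5 in the shared part. Of the 24, 18 had peaks in KO libraries only, 2 in WT libraries only (both just past the start of Pcdhgc3), and 4 in both. Within 1 kb of an A or B start there were 16 merged regions of 196 to 653 bp, and the middle of all 16 lay downstream of the start, at 134 to 624 bp with a median of 214 bp. The farthest, at 624 bp, was that of Pcdhga12, and the next was that of Pcdhga11 at 321 bp. Those of Pcdhga7 (201 bp) and Pcdhgb8 (182 bp), with peaks in both genotypes, lay in the same range, so the position is not particular to KO peaks. The 5 regions of the shared part had peaks in both genotypes.

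A peak in each of the 3 KO libraries and in none of the WT libraries was found at 78 of 62979 merged regions of the genome (0.124%), and 4 of the 78 lay in the gamma variable part. They were at Pcdhga2 (chr18:37668918-37669359), at Pcdhgb4 (chr18:37720402-37720931), at Pcdhga10 (chr18:37746970-37747465), and at chr18:37767395-37768190. The middle of the last lay 2212 bp past the start of Pcdhga12, its fold enrichment was 4.08, 4.51 and 4.64 in KO libraries 1, 2 and 3, and it spans most of the gap between the first and the second H3K9me3 region of that gene. The reverse pattern, a peak in every WT library and in none of KO, was found at 29 regions of the genome (0.046%) and at 0 in the gamma interval. With peaks in at least 2 KO libraries and no WT library there were 13 regions in the variable part, and with peaks in at least 2 WT libraries and no KO library 0. Over the genome, 1.84% of all merged regions had the former pattern and 1.51% the latter. Without KO library 3, which also lowers the requirement to 2 KO libraries, the count of 4 became 13 and the share of all merged regions 1.41%. It was 2 with equal list lengths (0.282% of all) and 2 with a -log10 q of at least 5 (0.0679% of all).

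Most KO peaks of the variable part overlapped listed H3K9me3 regions, which cover 72.1% of that part and 86.5% of the span of the array. Of the variable peaks, 16 of 20, 16 of 19 and 5 of 6 overlapped a listed H3K9me3 region in KO, and 2 of 4, 2 of 5 and 1 of 2 in WT. The KO shares were 80.0%, 84.2% and 83.3%, close to the share of the sequence that the listed regions cover. Over all peaks of a library the overlap was 2.05%, 2.15% and 4.03% in KO and 1.20%, 1.42% and 4.57% in WT. Of the 18 merged regions with KO peaks only, 17 overlapped a listed H3K9me3 region. The marks were profiled in different libraries, so whether they change in the same cells or on the same allele was not tested.

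Other genes tied to the cluster were taken from lists of known function. Of 28 regulators of the clustered protocadherins or of H3K9 methylation, 4 had listed regions, 23 in all, and the authors' table gave each of the 23 as lower, with a median log2 fold change of -1.74. limma called 9 of the 23 lower and 0 higher. The region with the smallest adjusted p in each gene had a limma difference of -2.52 at Smchd1, which encodes a chromosomal protein that represses clustered protocadherins, -2.42 at Atf7ip, a partner of SETDB1, -2.11 at Stag1, a cohesin subunit, and -1.82 at Lrif1, a partner of SMCHD1 (limma adjusted p = 0.0471 each). All 4 are gene-body regions, and no expression was measured. Of 22 other protocadherins and partners of the gamma proteins, 10 had listed regions, 41 in all and each lower in the authors' table, and limma called 10 lower and 0 higher. The leading ones were Pcdh9 at -2.21, Nlgn1, a postsynaptic adhesion protein, at -1.75 and Prkca, a protein kinase C, at -1.59 (limma adjusted p = 0.0471 each), and Axin1, a scaffold of Wnt signalling, at -2.18 (limma adjusted p = 0.0475). As in the gamma cluster, the limma shares have to be read against the 14.9% of all listed regions that limma called lower. The authors' calls have to be read against the 71.1% of all listed regions that their adjusted p called lower.

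Outside the protocadherin genes, the autosomal regions whose values were most like the member mean over the 6 listed values lay in Adgrl3, Prdm9, Grip1, Nebl and Apba2, with a Pearson coefficient of 0.999 each, given as a description over 6 values that share libraries and scaling and fall into 2 genotypes. Their limma differences ran from -1.34 at Nebl to -2.13 at Prdm9.

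Setdb1 itself had 0 listed H3K9me3 regions, and the deposited files do not measure its expression or the deletion, so the genotype labels were not checked from it. Of 7 neural progenitor markers, 4, 5 and 2 had an H3K27ac peak within 1 kb of a gene end in KO and 6, 5 and 1 in WT, Fabp7 in all 6 libraries and Prom1 in none. Of 7 ganglionic eminence markers, 0, 0 and 0 had one in KO and 1, 1 and 0 in WT, and Dlx1, Dlx2, Dlx5, Gsx2, Gad1 and Gad2 had none in any library. Of the 7 eminence markers, the one with a peak had it in WT libraries 1 and 2 only. Markers of cortical excitatory neurons and of vascular cells had no peak in any library. Of 5 markers of microglia and blood, 1 had a peak, in KO library 1, and of 5 markers of oligodendrocytes and astrocytes 2, 2 and 1 had one in KO and 1, 1 and 0 in WT. The part of cell composition in the gamma peaks was not tested.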

How the data were processed

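The members and gene lists were chosen with earlier results of these data known. The submitters' processing notes name mm10, Bowtie2 2.3.4.3 and MACS2 (the last without a version). The counting and testing tools behind the H3K9me3 table are not given in the sources used here. That table lists regions the authors selected, with 3 normalised values per genotype, which are a signal scaled by the authors. Its deposited columns also give an enrichment ratio and a log2 change of KO over WT. Its deposited p-value and adjusted p-value belong to single regions, and the adjusted one is listed as 0 at 9 of the 10 member regions. The regions were chosen by the authors on these same libraries, so tests on them are not independent of that choice. The deposited H3K27ac peaks come as 1 list per library, in which the authors' caller gave every peak a score, its fold over background, and p and q as -log10. Fold enrichment was used to describe or rank peaks within a list, and where it is set beside that of another library no test was made.

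limma 3.58.1 (R 4.3.3) with a mean-variance trend was fitted to log2(value + 1) over all 50654 regions, 3 against 3. This understates changes of low values. The listed values are whole multiples of a step at each position within 0.1 reads, so reads were recovered for limma-voom. Relative depth from the steps was 17.1%, 100% and 51.9% in KO and 24.6%, 53.2% and 60.1% in WT, and the first KO value is the least precise. Depth of the H3K27ac libraries is unknown. Peaks were counted by any overlap, merged at 1 bp, and set against RefSeq gene starts (GRCm38) within 1 kb, with two-sided exact permutation tests. Gene starts, not exon annotations, stood for variable exons. The limma script was tested on simulated data. Named genes were all 8 members, the other gamma genes, up to 4 genes per list by smallest adjusted p (ties by size of change) and the 5 regions most like the members. Alternatives covered pseudocount, filter, scaling, trend, left-out libraries, peak thresholds, list length and merging. The counts at gene starts under other settings and the 13 gamma regions were added after the data were seen.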

Additional observations from a re-analysis of the deposited data

How the results depend on the processing

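The count of member regions that limma called lower was 7 with a pseudocount of 0.5, with a minimum mean of 10, after median-ratio scaling and on autosomes only, 9 with a pseudocount of 5 and 10 by limma-voom. In that order, 12.1%, 14.9%, 5.97%, 19%, 33.3% and 58.0% of all tested regions were called lower. Without the mean-variance trend 0 members and 0 of all listed regions were called lower, while 10 of 10 members had an unadjusted p under 0.05. The member count ranged from 0 to 10 when 1 listed value was left out, and the share of all listed regions from 0% to 61.1%. No setting called a member higher, and no member changed sign. The gamma against beta difference ranged from -1.32 to -0.67 and the gamma against alpha difference from -1.01 to -0.56 without 1 listed value. The excess of variable-part peaks in KO stayed positive under every setting, from 8.83 to 15.8 without 1 library and 5.33 with equal list lengths, and so did the excess of gamma starts with a peak, 9.67 in all, 7.33 to 13.8 without 1 library, 4 with equal list lengths and 6.67 with a -log10 q of at least 5 (exact permutation p = 0.2). The shared-part difference of -0.333 turned to 0.667 with equal list lengths, 0.5 within the title number of libraries 2 and 3, and ranged from -1.5 to 1 without 1 library. Gamma regions with peaks in every KO and no WT library numbered 4, and 4 when merged within 500 bp. There were 2 with a -log10 q of at least 5, 2 with equal list lengths, 17 within the title number of libraries 1 (1 KO against 1 WT library, where 22.4% of all merged regions were KO-only), and from 4 to 13 without 1 library (0.133% to 1.41% of all). The cause of these shifts was not tested. No paired analysis was possible because the listed H3K9me3 values name no animal. With 3 animals per group the exact permutation test used for H3K27ac counts cannot give a p below 0.1, and 2 to 5 reads lie behind the lowest KO values.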
